A study of Gallus gallus with 6 samples.

Results

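Collagen chain genes encode the structural proteins that hold the gut wall together, and their transcripts were examined in the ileum of Taiping chickens, a local breed, kept with or without a probiotic and fructo-oligosaccharide supplement. The members are the rows of the gene table whose symbol reads COL, digits, A and digits, which gave 25 rows with 24 symbols (COL25A1 stands on 2 rows) out of 17623. Of these, 22 had enough counts to enter the test, which covered 13774 genes in all. The study compared 3 libraries of a control group (CT), fed a basal diet of corn and soybean, with 3 libraries of a supplemented group (MP_FOS). The MP_FOS birds had the same basal diet and drinking water with 2 mL of probiotics and 1 mL of fructo-oligosaccharide, a chain of fructose units that gut bacteria ferment, per litre. All birds are labelled as males of 2 months. The labels name neither the probiotic strains nor the layers of the ileal wall that were sampled, and they do not state whether numbered replicates come from different birds. The p-values therefore cover only the spread between these libraries, part of which may be technical. Reads of a W-linked gene, given below, differed between libraries of each diet, so these are not all repeats of 1 RNA sample. Whether the libraries numbered 1 and 3 come from different birds is not stated.

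Collagens are trimers of chains built from repeats that begin with glycine. The chains are hydroxylated and folded in the endoplasmic reticulum, exported, trimmed of their propeptides and crosslinked outside the cell. Fibrillar collagens (types I, II, III and V here) form rope-like fibres, type II those of cartilage. Types I, III and V form the fibres of the lamina propria and submucosa, where fibroblasts make most of them. Type IV forms the sheet under epithelia and around vessels, and type VI forms beaded microfilaments between that sheet and the fibres. FACIT collagens attach to the surface of fibrils, network collagens of type VIII form lattices around vessels, and transmembrane collagens such as type XVII stay anchored in the cells that make them.

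Total expected counts per library ran from 11833015 (MP_FOS replicate 3) to 18106651 (CT replicate 3), so 1 count stood for 0.0531 to 0.0843 CPM (counts scaled to the size of the library, here with TMM factors). FABP6, the bile acid binding protein of ileal enterocytes, was present in every library at 1293 CPM or more. Wpkci-7, a gene of the W chromosome that only hens carry, had 1846 to 2804 reads in the replicates numbered 1 and 3 of both diets and at most 3 in the replicates numbered 2. The label of male therefore goes against 4 of the 6 libraries, and the libraries of each diet were mixed in the same way. The collagen results without the replicates numbered 2 are given below with the overall comparison. edgeR's quasi-likelihood test called 0 of the 13774 genes at an adjusted p of 0.05 (Benjamini-Hochberg), a share of 0%, while 1457 had an unadjusted p under 0.05 (10.6%). DESeq2 called 105 genes (0.778%) and limma-voom called 0.

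Type III collagen was the most abundant collagen transcript in the ileum, and few chains made up nearly all of the collagen message. Levels of different genes are compared here in FPKM, the authors' values per kilobase of transcript. In CT, COL3A1 stood at 573 ± 2.59 FPKM (mean ± SD, n = 3), rank 116 of the 17623 rows. COL6A2 at 223 ± 6.44, COL6A1 at 157 ± 2.35 and COL4A1 at 150.4 ± 10.3 FPKM followed, and the order of the last pair was not kept in every CT library. COL1A1 and COL1A2, the chains of type I collagen, stood beside each other at 122 ± 8.13 and 121 ± 4.42 FPKM and did not differ beyond their spread. The COL1A1 value leaves out 4 assembled loci that are described as alpha-1 chains of type I collagen. COL4A2, COL6A3, COL5A2 and COL5A1 followed at 92.7 ± 5.48, 51.0 ± 1.58, 39.5 ± 1.90 and 21.4 ± 0.471 FPKM. These 10 chains of types I, III, IV, V and VI carried 96.1 to 98.1% of the summed collagen FPKM in every library. COL17A1, with 23.4 ± 3.47 FPKM in CT, was at the level of COL5A1, and the remaining members lay below both in every CT library. Fibrillar chains supplied 50.2 to 58.8% of the summed collagen FPKM, the beaded filament class 24.4 to 29.4% and type IV 13.5 to 18.5%.

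**Figure D1:**
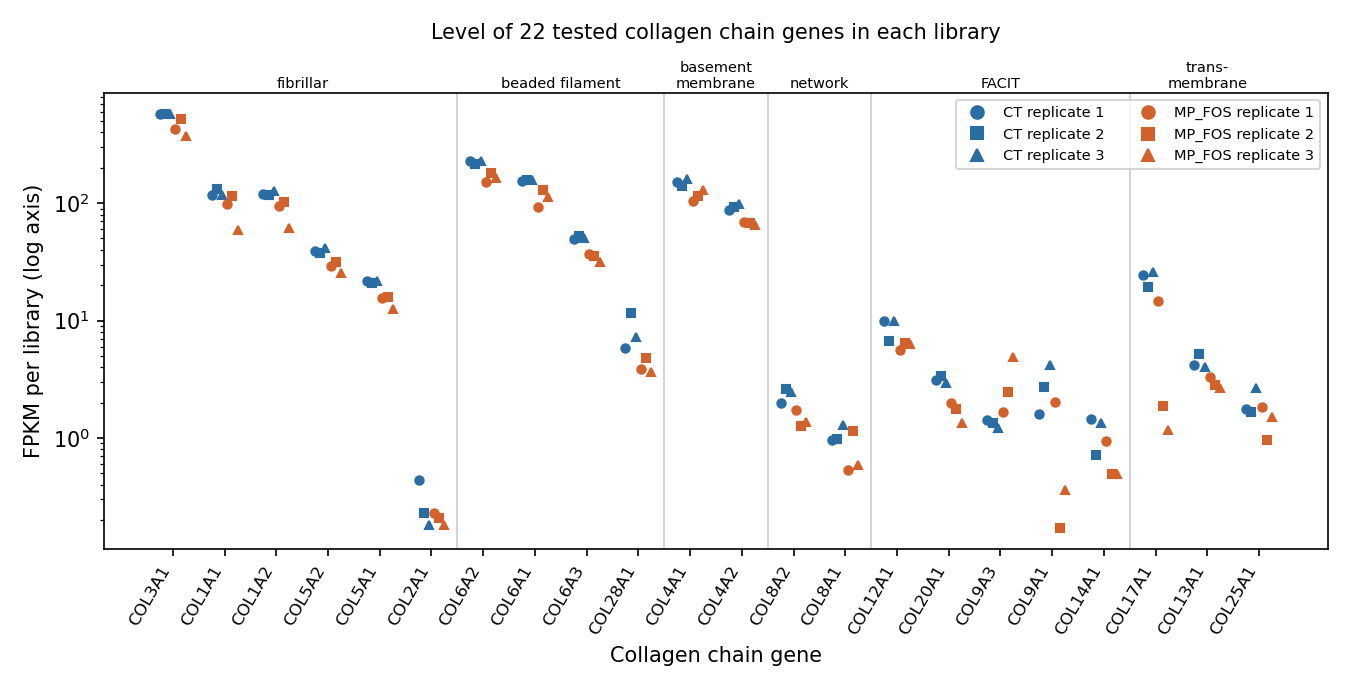
FPKM (log axis) of the 22 tested collagen chain genes, grouped by class, with 1 point per library (blue CT, orange MP_FOS, shapes for the replicate number). COL3A1 stands above all other chains in every library. All orange points lie below all blue ones in 16 genes, as in 12.03% of all genes tested on FPKM. In COL9A3 they lie above, and in COL9A1, COL14A1, COL2A1, COL8A1 and COL25A1 the groups overlap.

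Collagen transcripts as a whole were less abundant in the MP_FOS libraries. The summed collagen FPKM was 1595, 1594 and 1642 for the CT libraries in the order of their numbers, and 1161, 1339 and 1060.0 for the MP_FOS libraries, an order kept for all values below. The groups did not overlap, and the MP_FOS mean was 73.7% of the CT mean. On the normalised CPM scale the summed level was 8064 ± 141 in CT and 6265 ± 867 in MP_FOS (77.7%), so the spread between libraries was wider in MP_FOS. In bulk tissue, fewer collagen-making cells and less collagen RNA per cell cannot be told apart.

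Of the 22 tested members, 21 were lower in MP_FOS and 1, COL9A3, was higher, against 48.5% lower among all genes tested. The median log2 fold change (MP_FOS minus CT, edgeR) was −0.42 (quartiles −0.60 to −0.36), against 0.01 over all genes tested. In 14 members (63.6%) the highest MP_FOS library lay below the lowest CT library, which was so in 8.47% of all genes tested. COL9A3 alone was higher without overlap, as were 8.2% of all genes, so 15 members had groups that did not overlap in either direction, against 16.7% of all genes. With an unadjusted p under 0.05 in edgeR, 10 members (45.5%) were lower, against 4.86% of all genes, and 1 was higher, against 5.72%. No member passed the adjusted threshold of 0.05 in edgeR (adjusted p from 0.445 to 0.795, Benjamini-Hochberg over all genes), in DESeq2 (smallest adjusted p = 0.0913) or in limma-voom. DESeq2 gave 12 members an unadjusted p under 0.05 with a lower level, against 4.72% of all genes, and limma-voom 13, against 5.21%.

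Transcript length and level moved with these values across the table, so both backgrounds are given. Of the 22 members, 18 lay among the 3444 longest tested genes (3055 bases or more). Among those longest genes the median log2 fold change was −0.06, 60.4% were lower and 13.5% were lower without overlap. Among the 3444 genes of highest mean FPKM, 3.95% of all genes were lower without overlap, as were 8 of the 9 collagens there. In the 3444 genes of lowest mean FPKM the contrast was weaker. There 12.6% of all genes were lower without overlap, as were 3 of 9 collagens, and 60.8% of all genes were lower. After a length trend was removed from each library, 12 members were lower without overlap (7.38% of all genes), and the median log2 fold change was −0.35. This setting was fitted with limma on log2 CPM, so its values also differ from edgeR's by the method. COL3A1 went from −0.30 to −0.18, COL5A1 from −0.47 to −0.27 and COL6A3 from −0.48 to −0.25. COL4A1 went from −0.30 to −0.14, COL4A2 from −0.39 to −0.26 and COL12A1 from −0.46 to −0.21. COL1A1 and COL6A1 moved less, from −0.35 to −0.32 and from −0.42 to −0.40, and COL9A1 went further down, from −1.64 to −2.15. Without both libraries numbered 2 the median was −0.49, with 21 of 22 lower and 18 without overlap, against 19.6% of all genes with 2 libraries a group. In that fit COL1A1, COL3A1 and COL1A2 had log2 fold changes of −0.49, −0.43 and −0.58, COL5A1 and COL5A2 −0.54 and −0.46, and COL2A1 −0.49. COL6A1, COL6A2, COL6A3 and COL28A1 had −0.54, −0.45, −0.46 and −0.72, and the basement membrane chains COL4A1 and COL4A2 −0.33 and −0.39. The type VIII chains COL8A1 and COL8A2 had −0.93 and −0.42, and the transmembrane chains COL17A1, COL13A1 and COL25A1 −1.58, −0.40 and −0.30. Among the FACIT chains COL9A3 had 1.37, COL9A1 −1.14, COL14A1 −0.95, COL20A1 −0.77 and COL12A1 −0.66, so every member kept the direction it had with all libraries.

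**Figure D2:**
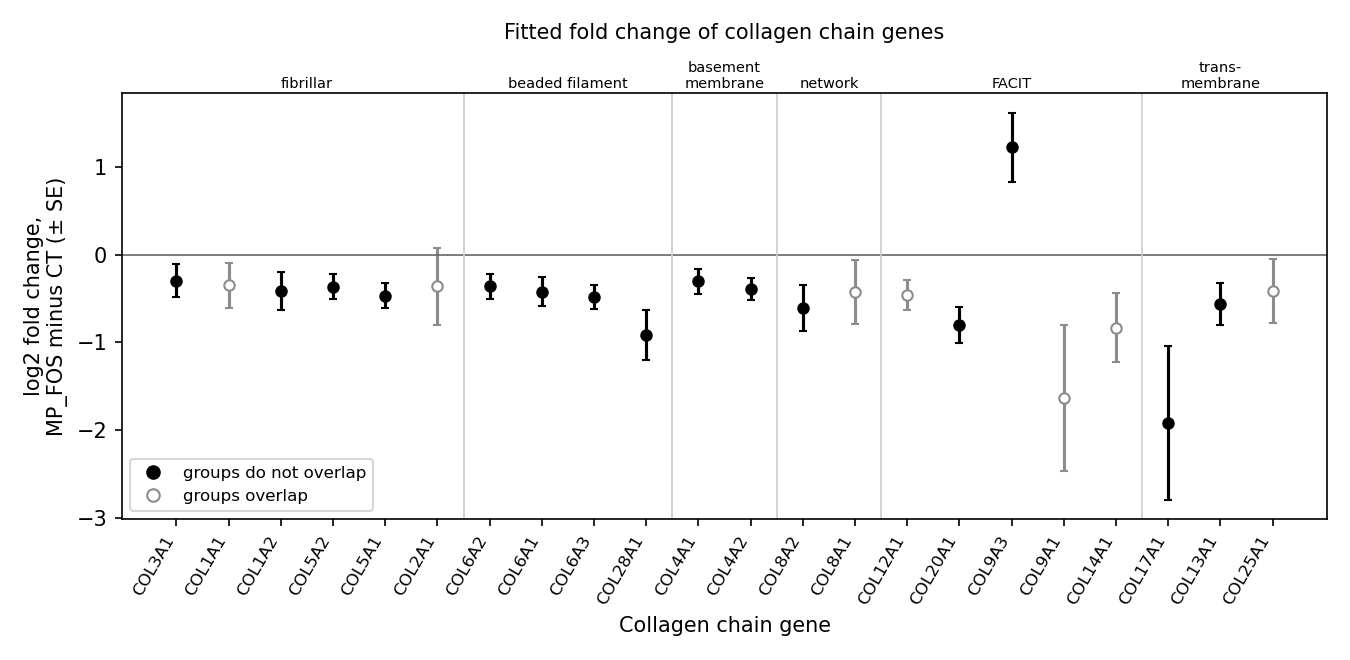
Fitted log2 fold change (MP_FOS minus CT, edgeR) with its SE for the 22 tested collagen chain genes by class, n = 3 libraries a group. Filled points mark the 15 genes whose groups do not overlap, as was so in 16.7% of all genes tested. All genes but COL9A3 lie below 0.

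All 6 fibrillar chains averaged less in MP_FOS, with log2 fold changes from −0.47 to −0.30 and a median of −0.36. In 4 of them the groups did not overlap, where 8.47% of all genes tested were lower without overlap. COL3A1 (ENSGALG00000035584) had 3043, 3166 and 3060 CPM in CT and 2455, 3035 and 2059 CPM in MP_FOS. All MP_FOS libraries lay below all CT libraries, although MP_FOS replicate 2 came close to the lowest of them. COL1A1 (ENSGALG00000041555) had 490.1, 573 and 493 CPM in CT and 443, 523 and 255 CPM in MP_FOS, so its groups overlapped. Its partner chain COL1A2 (ENSGALG00000009641) had 476, 481 and 496 CPM against 398, 441 and 249 CPM, without overlap. MP_FOS replicate 3, the library of lowest depth, held the lowest value of all 6 libraries in all of these genes. The log2 fold changes of COL3A1, COL1A1 and COL1A2 were −0.30 ± 0.19, −0.35 ± 0.26 and −0.42 ± 0.22 (± SE; edgeR adjusted p = 0.605, 0.649 and 0.533). Without MP_FOS replicate 3 they were −0.17, −0.10 and −0.21, and without MP_FOS replicate 2 they were −0.45, −0.57 and −0.58.

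Both chains of type V collagen, which joins type I in mixed fibrils and limits their width, were lower in MP_FOS without overlap. The share over all genes tested was 8.47%. COL5A1 (ENSGALG00000002546) had 172 CPM in each CT library and 132, 137 and 104 CPM in MP_FOS. Its CT libraries agreed to within 1 CPM. COL5A2 (ENSGALG00000031112) had 204, 202 and 211 CPM in CT and 163, 179 and 137 CPM in MP_FOS. The MP_FOS means were 72.3 and 77.7% of the CT means. Their log2 fold changes were −0.47 ± 0.14 and −0.36 ± 0.14, with unadjusted p-values of 0.0122 and 0.0326 and adjusted p-values of 0.445 and 0.464 in edgeR. COL2A1 (ENSGALG00000030712), the collagen of cartilage, stood at 1.18 ± 0.555 CPM in CT and 0.908 ± 0.133 CPM in MP_FOS. At 9 to 30 counts a library no difference in COL2A1 was detected (log2 fold change −0.36 ± 0.44, unadjusted p = 0.439, adjusted p = 0.795 in edgeR). So few counts limit what could be seen, and no detection limit was computed. The sign of its log2 fold change turned when CT replicate 1 was left out (0.08, against −0.36 with all libraries).

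All 3 measured chains of type VI collagen were lower in MP_FOS without overlap, as were 8.47% of all genes tested. COL6A2 (ENSGALG00000039216) had 910.1, 901 and 907 CPM in CT and 642, 791 and 684 CPM in MP_FOS. COL6A1 (ENSGALG00000005974) had 456, 485 and 467 CPM against 290.5, 419 and 341 CPM. COL6A3 (ENSGALG00000003923), the long chain that carries most of the globular domains, had 458, 506 and 467 CPM against 366, 357 and 303 CPM. In each chain the gap between the groups was wider than the whole range within CT. The log2 fold changes were −0.36 ± 0.15, −0.42 ± 0.17 and −0.48 ± 0.14, with unadjusted p-values of 0.0403, 0.0373 and 0.00996 and adjusted p-values from 0.445 to 0.468 in edgeR.

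COL28A1 (ENSGALG00000010259), which encodes a chain with von Willebrand factor A domains like those of type VI, had the lowest MP_FOS mean relative to CT in its class. It had 19.4, 39.9 and 24.0 CPM in CT and 13.7, 17.6 and 12.6 CPM in MP_FOS, without overlap. CT replicate 2 stood well above the other CT libraries. The log2 fold change was −0.92 ± 0.29 (unadjusted p = 0.0136, adjusted p = 0.448 in edgeR), and it was −0.57 without CT replicate 2. COL26A1 (ENSGALG00000043223) was not tested, with 1 to 8 counts a library.

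The basement membrane chains COL4A1 and COL4A2, which combine with each other in the type IV trimer, were both lower without overlap. Among all genes tested 8.47% were lower in this way. COL4A1 (ENSGALG00000036798) had 939, 910.2 and 1001 CPM in CT and 696, 776 and 839 CPM in MP_FOS. COL4A2 (ENSGALG00000016843) had 466, 511 and 523 CPM against 391, 390.1 and 363 CPM. Here MP_FOS replicate 3 was the highest MP_FOS library for COL4A1 and the lowest for COL4A2. The log2 fold changes were −0.30 ± 0.15 and −0.39 ± 0.13, with unadjusted p-values of 0.0740 and 0.0181 and adjusted p-values of 0.509 and 0.450 in edgeR. After the length trend was removed the median of the pair was −0.20, against −0.35 in the main fit. The RefSeq annotation places these genes next to each other with overlapping ends, and their deposited counts are not whole numbers, so reads at the overlap may be divided between them.

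Network collagens were scarce and both chains of type VIII averaged less in MP_FOS. COL8A2 (ENSGALG00000002298) had 3.96, 5.45 and 4.89 CPM in CT and 3.70, 2.79 and 2.87 CPM in MP_FOS, without overlap (log2 fold change −0.61 ± 0.26, adjusted p = 0.474 in edgeR). COL8A1 (ENSGALG00000015253) had 3.84, 4.06 and 5.15 CPM against 2.27, 4.99 and 2.44 CPM. Its groups overlapped through MP_FOS replicate 2 (log2 fold change −0.42 ± 0.37, adjusted p = 0.693 in edgeR), and leaving out 1 library at a time moved the log2 fold change between −0.89 (without MP_FOS replicate 2) and −0.23 (without MP_FOS replicate 1), with −0.26 without MP_FOS replicate 3 and −0.28 without CT replicate 3.

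The FACIT class was the only one whose tested chains went both ways, with 4 lower and 1 higher. COL12A1 (ENSGALG00000015908), found along type I fibrils, had 91.7, 64.0 and 91.1 CPM in CT and 54.8, 64.3 and 60.5 CPM in MP_FOS. CT replicate 2 lay among the MP_FOS libraries, so the groups overlapped. The log2 fold change of COL12A1 was −0.46 ± 0.17 (unadjusted p = 0.0290, adjusted p = 0.464 in edgeR), and it was −0.61 without CT replicate 2. COL20A1 (ENSGALG00000005797) had 14.7, 16.5 and 13.9 CPM in CT and 9.97, 9.21 and 6.57 CPM in MP_FOS. It had the smallest unadjusted p of all members (0.00556, with an adjusted p of 0.445 in edgeR) and a log2 fold change of −0.80 ± 0.21, its groups standing clear of each other. COL14A1 (ENSGALG00000037675), another chain bound to type I fibrils, ran from 4.52 to 8.95 CPM in CT and from 2.78 to 6.09 CPM in MP_FOS, with overlap (log2 fold change −0.83 ± 0.39, adjusted p = 0.501 in edgeR). COL22A1 (ENSGALG00000038022) had 0 to 5 counts a library and was not tested.

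Both measured chains of type IX collagen, a FACIT known best from cartilage, differed in direction, and COL9A1 did so with overlap. COL9A1 (ENSGALG00000015970) had 6.19, 11.0 and 15.9 CPM in CT and 8.36, 0.713 and 1.43 CPM in MP_FOS. Only MP_FOS replicate 1 lay within the CT range, the other two MP_FOS libraries being far below it. COL9A3 (ENSGALG00000005628) had 3.48, 3.42 and 2.97 CPM in CT and 4.36, 6.53 and 12.4 CPM in MP_FOS. All MP_FOS libraries lay above CT, replicate 1 the least and replicate 3 the most. The log2 fold changes were −1.64 ± 0.83 for COL9A1 and 1.23 ± 0.39 for COL9A3 (unadjusted p = 0.0878 and 0.0161, adjusted p = 0.525 and 0.448 in edgeR). Without MP_FOS replicate 3 the log2 fold change of COL9A3 was 0.73. Among cartilage markers, ACAN was close to 0 (at most 0.232 CPM), HAPLN1 averaged 7.05 ± 2.49 CPM in CT and 3.23 ± 0.985 CPM in MP_FOS with overlap, and SOX9, which intestinal crypts also express, had 10.3 to 23.8 CPM. The summed level of that list was 26.6 to 34.5 CPM in CT and 13.9 to 31.6 CPM in MP_FOS, and its part in the type IX values was not tested.

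COL17A1 (ENSGALG00000029617), which anchors epithelial cells to the basement membrane at hemidesmosomes, had the largest fitted difference of all members and the widest spread among the supplemented libraries. It had 127, 107 and 137 CPM in CT and 81.4, 10.3 and 5.90 CPM in MP_FOS. The groups did not overlap, but MP_FOS replicate 1 stood far nearer to CT than the other two did. The means were 124 ± 15.3 and 32.5 ± 42.4 CPM, and the log2 fold change was −1.92 ± 0.87 (unadjusted p = 0.0625, adjusted p = 0.492 in edgeR). Without MP_FOS replicate 1, COL17A1 and COL9A1 passed edgeR's test, with log2 fold changes of −3.93 (adjusted p = 0.0133) and −3.39 (adjusted p = 0.0474), among 223 genes (1.59%) called in that fit. Over all the alternatives the adjusted p ran from 0.0133 to 0.795 for COL17A1 and from 0.0474 to 0.820 for COL9A1. For both genes MP_FOS replicate 1 lay closest to the CT values, so leaving it out favours a pass. Without MP_FOS replicate 2 or 3 the log2 fold change of COL17A1 was −1.49 or −1.43. FABP6 had 6886 CPM in MP_FOS replicate 1 and 1975 and 1293 CPM in replicates 2 and 3, against 4514 to 5753 CPM in CT. Epithelial markers as a list did not share that pattern, with 10 tested rows higher in MP_FOS and 3 lower (median log2 fold change 0.28). Library medians of that list, as log2 differences from CT, were highest for MP_FOS replicate 2 (0.73), then replicate 1 (0.32), with replicate 3 at −0.09. Whether FABP6 or that list had a part in the COL17A1 values was not tested.

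**Figure D3:**
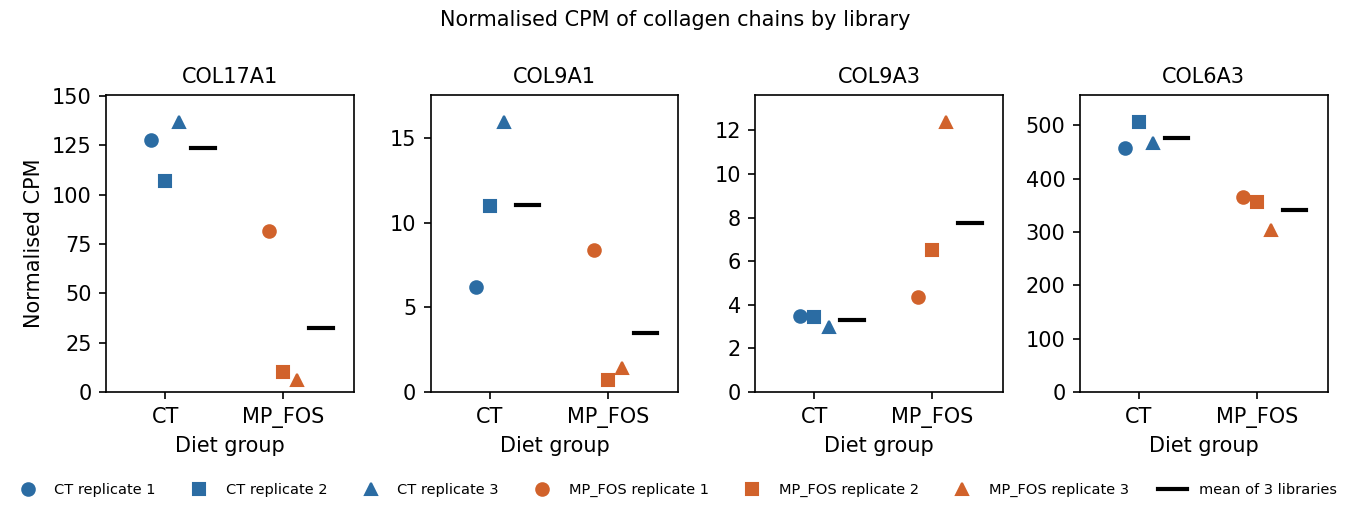
Normalised CPM of COL17A1, COL9A1, COL9A3 and, for contrast, COL6A3 in each library (blue CT, orange MP_FOS, shapes for the replicate number, black line for the mean of 3 libraries). In COL17A1 and COL9A1 MP_FOS replicate 1 stands apart from the other MP_FOS libraries, while in COL6A3 the MP_FOS libraries lie together at 303 to 366 CPM.

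The remaining transmembrane chains were rare. COL13A1 (ENSGALG00000004286), a chain of cell adhesion sites, had 6.25, 8.23 and 6.06 CPM in CT and 5.19, 4.63 and 4.05 CPM in MP_FOS. Its groups did not overlap, and the log2 fold change was −0.56 ± 0.24 (unadjusted p = 0.0476, adjusted p = 0.473 in edgeR). COL25A1 (ENSGALG00000039411) ranged from 1.97 to 3.08 CPM in CT and from 1.19 to 2.33 CPM in MP_FOS, with overlap. The second COL25A1 row is an assembled locus with at most 1 count in any library and was not tested.

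The proportions of chains that assemble together overlapped between the diets in every pair compared. The ratio of COL1A1 to COL1A2 in FPKM was 0.965, 1.12 and 0.932 in CT and 1.04, 1.11 and 0.959 in MP_FOS. Ratios with COL1A1 leave out the 4 assembled loci described as alpha-1 chains of type I collagen. COL4A1 to COL4A2 ran from 1.52 to 1.72 in CT and from 1.52 to 1.97 in MP_FOS, and COL6A1 to COL6A2 from 0.681 to 0.733 and from 0.614 to 0.726. The ratio of COL5A1 to COL5A2 was 0.542 ± 0.0175 in CT and 0.507 ± 0.0190 in MP_FOS, with overlap. COL3A1 to COL1A1, type III against type I, was 4.36 to 4.90 in CT and 4.37, 4.58 and 6.39 in MP_FOS, where replicate 3 alone was high. Of 10 ratios compared, the groups overlapped in all, and exact two-sided permutation tests of the log2 ratios gave p-values from 0.2 to 1 (0.8 to 1 after Benjamini-Hochberg adjustment), where 3 libraries against 3 cannot go below 0.1. COL9A1 to COL9A3 was the least steady, at 1.13 to 3.41 in CT and 1.22, 0.0691 and 0.0733 in MP_FOS. A miss of the threshold does not show that the ratios were equal.

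**Figure D4:**
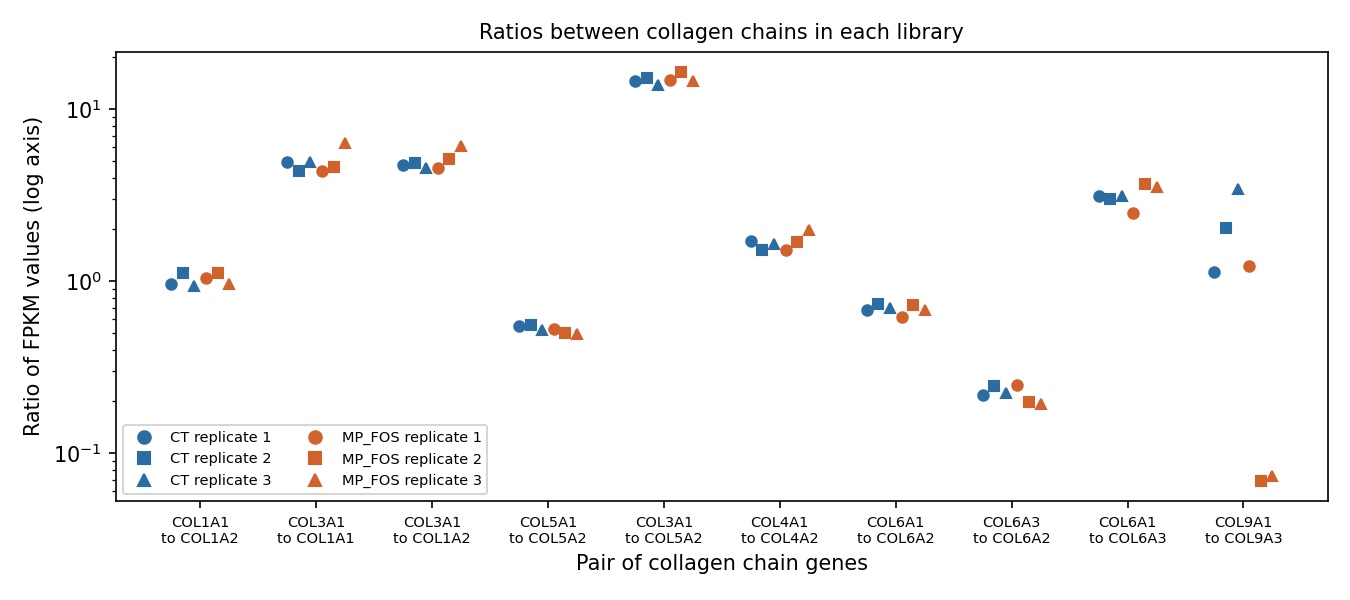
Ratio of FPKM values (log axis) for 10 pairs of collagen chains in each library (blue CT, orange MP_FOS, shapes for the replicate number). The groups overlap in every pair, and only COL9A1 to COL9A3 spreads by more than 10-fold.

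The share of each class in the collagen total overlapped between the diets. Fibrillar chains made up 54.5 ± 0.681% of the summed collagen FPKM in CT and 55.6 ± 4.71% in MP_FOS, type IV 15.1 ± 0.619% and 15.6 ± 2.54%, and the beaded filament class 27.3 ± 0.232% and 26.7 ± 2.53%. The transmembrane share was 1.66 to 2.00% in CT and 1.71, 0.421 and 0.533% in MP_FOS. Of the 25 rows only COL20A1, COL28A1 and COL9A3 had shares without overlap. The shares of COL20A1 and COL28A1 were lower in MP_FOS and that of COL9A3 was higher (0.0743 to 0.0896% in CT, 0.144 to 0.463% in MP_FOS). Among all genes tested 16.7% had CPM values without overlap in either direction, and no such background was computed for the shares.

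Across the 6 libraries, log2 CPM of COL3A1 varied most closely with COL1A2, COL5A2, COL1A1 and COL5A1 (Pearson r = 0.95, 0.95, 0.94 and 0.91, n = 6). It varied less with COL4A1 (0.47) and COL25A1 (0.01), and inversely with COL9A3 (−0.79). COL17A1 varied most closely with COL9A1 (0.92) and inversely with COL9A3 (−0.96). These values describe libraries that share the diet difference and the scaling, and they are given with no test.

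Genes that make and finish collagen did not share 1 direction. Of all genes tested, 48.5% were lower and 8.47% lower without overlap. Among enzymes and chaperones that modify and fold the chains, 9 of 16 tested genes were lower and 7 higher (median log2 fold change −0.12), and 0 passed edgeR's adjusted threshold. P3H4, part of a complex that hydroxylates lysines, averaged 11.7 ± 2.20 CPM in CT and 7.37 ± 0.705 CPM in MP_FOS, without overlap. SERPINH1, the collagen chaperone HSP47, averaged 396 ± 94.0 and 287 ± 48.4 CPM, with overlap. PPIB, the cyclophilin that turns prolines in new chains and in other secreted proteins, went the other way at 366 ± 34.4 and 477 ± 83.9 CPM, without overlap. Of 10 genes for the export of procollagen 5 were lower and 5 higher (median −0.0026). MIA3, the receptor TANGO1 that loads procollagen into carriers, averaged 161 ± 5.78 and 137 ± 15.7 CPM, and SAR1A, a GTPase of the same carriers, 104 ± 6.12 and 137 ± 29.5 CPM. CREB3L1, a factor that induces collagen export genes, averaged 25.2 ± 2.27 and 19.5 ± 5.62 CPM, with overlap.

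Genes that act on collagen outside the cell were mostly lower, where 48.5% of all genes tested were lower and 8.47% lower without overlap. All 9 tested genes of propeptide cleavage were lower (median log2 fold change −0.51), 3 of them without overlap. The summed level of that list overlapped, at 2474, 4942 and 4319 CPM in CT and 4647, 838 and 1916 CPM in MP_FOS. The 3 genes named next, with means of 38.7 CPM or less, were a small part of that sum. ADAMTS2, which removes the amino propeptide, averaged 38.7 ± 4.73 against 27.1 ± 2.91 CPM (log2 fold change −0.51 ± 0.14), without overlap. The enhancers of carboxyl propeptide removal PCOLCE (17.6 ± 2.96 against 11.7 ± 2.88 CPM) and PCOLCE2 (6.90 ± 0.931 against 5.12 ± 0.477 CPM) were also lower without overlap. Of the lysyl oxidases, which crosslink fibrils, 4 of 5 were lower (median −0.40), with LOXL2 at 73.3 ± 10.1 against 51.2 ± 3.88 CPM, LOX at 63.0 ± 7.20 against 44.6 ± 11.3 CPM and LOXL1 at 12.8 ± 1.31 against 9.72 ± 1.25 CPM, none of them with overlap. Their adjusted p-values in edgeR were 0.445, 0.472 and 0.496. Small proteoglycans that coat fibrils were lower in 7 of 8 (median −0.29), with ECM2 at 43.0 ± 6.61 against 30.1 ± 3.54 CPM, DCN (decorin) at 311 ± 19.5 against 256 ± 17.4 CPM and OGN at 41.2 ± 6.13 against 33.7 ± 0.814 CPM, of which OGN had groups that overlapped.

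Receptors and proteases of collagen differed from one another. Over all genes tested, 48.5% were lower and 8.47% lower without overlap. All 7 tested receptors were lower, but by a median log2 fold change of only −0.14 and with overlap in each, as in DDR2 (15.8 ± 0.343 against 13.6 ± 4.81 CPM), ITGA11 (19.7 ± 4.12 against 17.6 ± 2.40 CPM) and DDR1 (33.2 ± 5.10 against 29.6 ± 6.72 CPM). Of the genes of collagen breakdown 7 of 8 were lower (median −0.32). MMP2, a gelatinase of stromal cells, averaged 319.7 ± 28.7 against 259.9 ± 29.6 CPM without overlap, and MRC2, which takes up collagen fragments, 178 ± 25.5 against 142 ± 16.2 CPM with overlap. MMP9, a gelatinase of leukocytes, was the exception, at 6.97, 7.77 and 5.84 CPM in CT and 9.37, 10.7 and 20.9 CPM in MP_FOS, higher without overlap (log2 fold change 0.99 ± 0.33, unadjusted p = 0.0194, adjusted p = 0.450 in edgeR). In these 7 pathway lists 0 genes passed the adjusted threshold in edgeR or in DESeq2.

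**Figure D5:**
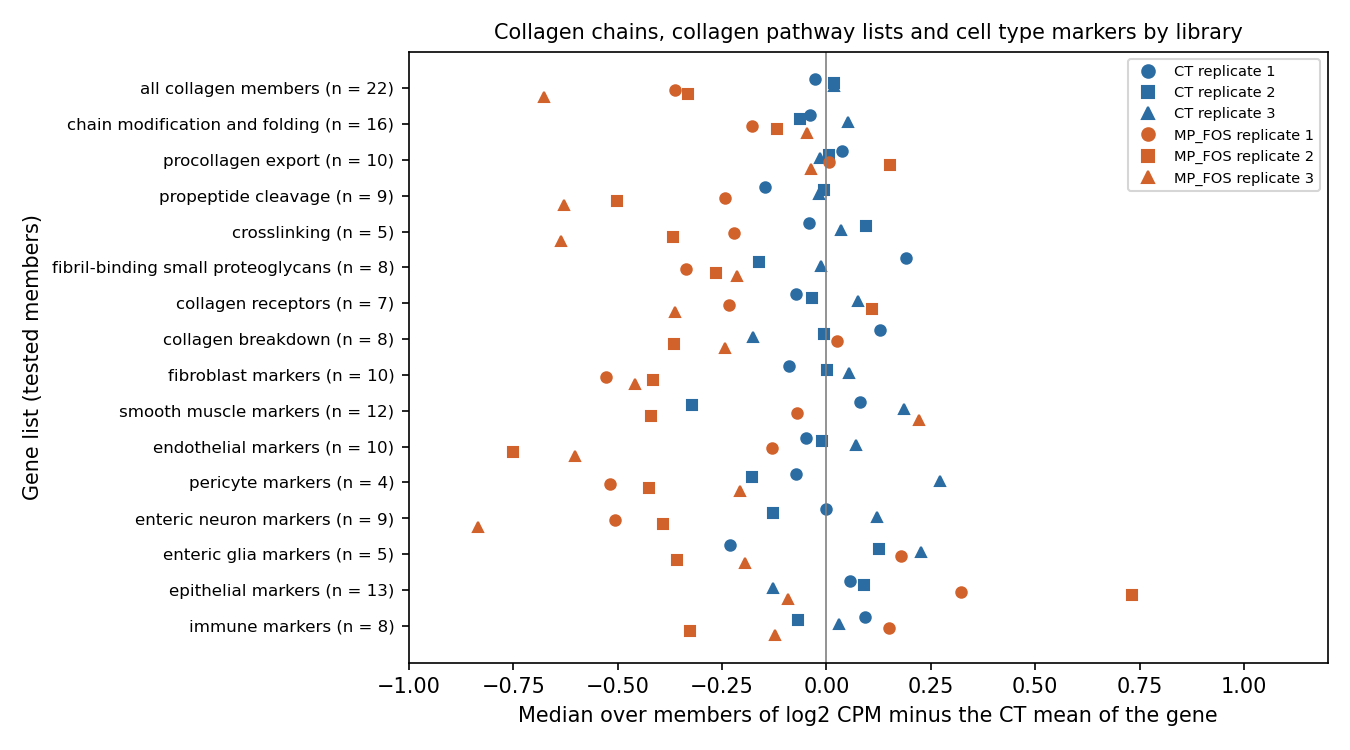
Difference of log2 CPM from the mean of the CT libraries, as the median over the tested genes of each list, with 1 point per library (blue CT, orange MP_FOS, shapes for the replicate number) and the number of tested members in brackets. The collagen members lie at −0.36, −0.33 and −0.68 in MP_FOS replicates 1, 2 and 3, whereas smooth muscle markers spread on both sides of 0 in both diets.

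Markers of the cells that make collagen differed between the diets to different extents from list to list. Of all genes tested, 48.5% were lower and 8.47% lower without overlap. All 10 tested fibroblast markers were lower, 5 without overlap (median log2 fold change −0.34). Their summed level was 614 to 682 CPM in CT and 506 to 524 CPM in MP_FOS. FBLN1 and DPT, the most abundant of them, averaged 141 ± 12.3 against 119 ± 24.3 CPM and 134 ± 16.3 against 117 ± 15.6 CPM. Endothelial markers were lower in 9 of 10, 4 without overlap (median −0.48). Their summed level was 676 to 707 CPM in CT and 414 to 588 CPM in MP_FOS, with VWF at 252 ± 16.3 against 170.3 ± 26.5 CPM and PECAM1 at 116 ± 11.4 against 96.5 ± 26.4 CPM. DESeq2 called 1 marker of each of these lists at an adjusted p of 0.05, against 0.778% of all genes. They were PI16 among the fibroblast markers (21.5 ± 2.17 against 9.14 ± 1.69 CPM) and CD93 among the endothelial ones (41.4 ± 2.97 against 23.3 ± 2.03 CPM). The test in edgeR called neither (adjusted p = 0.445 for both). All 4 pericyte markers were lower, 1 without overlap (median −0.31), with a summed level of 869 to 1171 CPM against 500.1 to 835 CPM, and RGS5 at 867 ± 145 against 580.3 ± 161 CPM. Smooth muscle markers split evenly, with 6 of 12 lower (median −0.03), and their summed level of 6597 to 9302 CPM in CT overlapped that of 6247 to 9674 CPM in MP_FOS, with ACTG2 at 1701 ± 358 against 1747 ± 627 CPM. The part of these markers in the collagen values was not tested.

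Markers of other cells gave no single direction. Over all genes tested, 48.5% were lower, 8.47% were lower without overlap and 8.2% were higher without overlap. Epithelial markers were higher in 10 of 13 rows, 3 without overlap (median 0.28), with EPCAM at 1512 ± 265 against 2041 ± 331 CPM. Their summed level was 10876 to 13357 CPM in CT and 9153 to 15168 CPM in MP_FOS. Enteric neuron markers were lower in 9 of 9, 5 without overlap (median −0.58). Their summed level was 80.2 to 82.6 CPM against 43.9 to 68.4 CPM, with RET at 26.9 ± 8.83 against 18.3 ± 5.53 CPM. Enteric glia markers had a median of −0.02 and summed levels of 311 to 353 and 291 to 411 CPM, with ERBB3 at 297 ± 16.0 against 320.5 ± 57.1 CPM. Immune markers had a median of −0.09 and summed levels of 1693 to 2638 and 1354 to 2314 CPM. Mesothelial markers, of which 3 were tested and UPK3B was at 0 in all libraries, had a median of 0.37. The part of these markers in the collagen values was likewise not tested.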

How the data were processed

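RNA of 6 ileum libraries was extracted with TRIzol. A kit for small RNA libraries is named in the labels, while the deposited genes span every length. The deposited table gives, per the file headers, expected counts (7.98% not whole) and FPKM computed by the authors. Tools listed in the submitters' processing notes, with no role stated, are HISAT2, Bowtie2, StringTie 1.3.1, DESeq2 and fastp 0.18.0. Not given in the sources used here: genome build, counting method and use of strand. After rounding, edgeR 4.0.16 in R 4.3.3 tested the counts (filterByExpr, TMM, quasi-likelihood F test, two-sided, Benjamini-Hochberg over 13774 genes, threshold 0.05). Each SE was taken as the size of the log2 fold change over √F. DESeq2 1.42.0 and limma 3.58.1 were other tools. The fit was also run on simulated data with planted differences larger than those of the abundant collagens. That run cannot show whether differences of their size would be detected. Printed CPM use the TMM factors, and transcript length comes from the ratio of count to FPKM.

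Members were taken by the file's symbol, and pathway and marker genes also by the RefSeq symbol of the NCBI identifier, used for names and neighbours only. The members and lists were chosen with earlier results of these data known. Named collagens are those with an unadjusted p under 0.05, the 2 of highest FPKM per class and the members of classes with at most 3 tested chains, with the remaining members given more briefly. Named pathway genes are up to 3 per list by smallest p, and named markers up to 2 per list by highest CPM. HAPLN1, ACAN, UPK3B, PI16 and CD93 fall outside this rule, having been picked with their values in view. Medians and counts of lists stand beside those over all genes, with no test. Alternatives were other scalings, filters, tools and units, removal of a length trend, a block for the replicate number, and fits with libraries left out. The counts of genes without overlap under other settings were chosen after seeing the data. Correlations of deviations between same-numbered libraries of the 2 diets were 0.0179, 0.279 and 0.156 for the numbers 1, 2 and 3. Libraries numbered 2 and 3 each correlated best with the library of their own number. Those numbered 1 did not, with CT replicate 1 closest to MP_FOS replicate 3 (0.122) and MP_FOS replicate 1 closest to CT replicate 3 (0.120).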

Additional observations from a re-analysis of the deposited data

How the results depend on the processing

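No collagen gene passed the threshold in 17 of the 18 alternatives fitted, the exception being the fit without MP_FOS replicate 1. At an adjusted p of 0.1 edgeR's fit of all libraries called 0 collagen genes, while COL20A1 and COL6A3 had an adjusted p of 0.0913 in DESeq2. With 1 library left out, collagen genes past the threshold numbered 0 to 2 and all genes past it 0 to 223, both highest without MP_FOS replicate 1. DESeq2 called 105 genes, and without both libraries numbered 2 edgeR called 1. The collagen median log2 fold change stayed below 0 throughout, from −0.54 to −0.35, and from −0.54 to −0.38 with 1 library left out. Of 22 tested members, 20 were lower without CT replicate 1 and 21 in every other alternative that tested 22. With no filter 21 of 25 were lower, and with at least 1 CPM in 3 libraries 20 of 21. Members lower with an unadjusted p under 0.05 numbered 10 in edgeR's fit of all libraries (4.86% of all genes), 7 with the length trend removed (4.46%), 15 on log2 FPKM (7.24 to 7.43%) and 4 to 12 with 1 library left out (2.83 to 8.57%). Members lower without overlap numbered 14 (8.47% of all genes), 12 with the length trend removed (7.38%), 16 on FPKM (12.03%), 18 without both libraries numbered 2 (19.6%) and 14 to 17 with 1 library left out (11.8 to 18.6%). In each setting with more than 14 such members the share of all genes was also above 8.47%. That share rose as well where the count stayed at 14, to 12.2% without CT replicate 3 and 13.4% without MP_FOS replicate 3. With the replicate number as a block the collagen median was −0.45, 6 members were lower at an unadjusted p under 0.05 and 0 passed the adjusted threshold. No label says what the number marks, same-numbered libraries also share the presence or absence of W-linked reads, and not every library correlated best with its own number. Of the 22 genes, COL2A1 turned sign in 1 alternative, without CT replicate 1, and ran from −0.61 to 0.0793 with 1 library left out. The median of the basement membrane class was −0.42 on log2 FPKM with either pseudocount and −0.20 with the length trend removed. Chains with under 10 CPM rest on few counts, which limits what differences can be seen in them.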

Other observations

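A further 7 rows carry no symbol in the deposited table but the NCBI identifier of a collagen gene, and they were kept out of all counts above. COL24A1 (ENSGALG00000006864), a fibrillar chain, averaged 19.8 ± 3.16 CPM in CT and 13.9 ± 2.90 CPM in MP_FOS, lower without overlap (log2 fold change −0.52 ± 0.21, unadjusted p = 0.0425 in edgeR, where no gene passed after adjustment). COL23A1 (ENSGALG00000006708), a transmembrane chain, averaged 5.43 ± 1.30 and 3.24 ± 0.921 CPM, with overlap (−0.75 ± 0.32). COL24A1 alone of these rows was lower without overlap, as were 8.47% of all genes tested. Tested chains other than COL24A1 and COL23A1 differed less, with log2 fold changes from −0.24 to −0.02. The median of the 22 tested members was −0.42. COL16A1 (FACIT) averaged 21.2 ± 1.94 and 20.3 ± 1.21 CPM, COL27A1 (fibrillar) 13.7 ± 1.91 and 13.5 ± 4.19 CPM, COL15A1 (of basement membrane zones) 10.8 ± 1.93 and 9.18 ± 2.99 CPM, and COL4A4 2.91 ± 0.594 and 2.87 ± 0.469 CPM, all with overlap. COL10A1 had at most 7 counts in a library and was not tested. Another 4 assembled loci are described as alpha-1 chains of type I collagen from a protein match and were not used as members.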
